A study of Mus musculus with 18 samples.

Results

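The nuclear genes of the mitochondrial respiratory chain were followed in splenic CD4+ T cells from mice with and without functional Foxp3. Members were all gene symbols starting with Nduf, Uqcr, Atp5, Cox4, Cox5, Cox6, Cox7 or Cox8, plus Sdha, Sdhb, Sdhc and Sdhd, that held at least 10 UMIs over all cells. Of 93 symbols, 88 qualified, out of 17739 genes with any UMI. Complex I gave 36 subunits and 7 assembly factors, complex II 4 subunits, complex III 8, complex IV 15 and complex V 16, with 2 further coupling or ATP synthase-like genes, Atp5s and Atp5sl. The 5 symbols under the minimum were tissue-restricted forms: Cox4i2 held 7 UMIs, and Cox7b2, Cox8b, Cox8c and Ndufa4l2 held 0. Gene models of 87 members were found in GENCODE, on 19 chromosomes, and 86 are protein coding. The rule chose genes by name and by total level, not by any difference between groups. It was set, however, with earlier results of these data known.

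The respiratory chain passes electrons from NADH (complex I) and succinate (complex II) through complex III and cytochrome c to oxygen at complex IV, and the proton gradient built on the way drives the ATP synthase, complex V. Most subunits are encoded in the nucleus and imported, while a small set of core subunits of complexes I, III, IV and V is encoded by mitochondrial DNA, so assembly draws on both genomes. Resting T cells use mainly oxidative phosphorylation. Activated T cells add glycolysis and enlarge their mitochondria, and regulatory T cells (Treg), which depend on the transcription factor Foxp3, are known for a high reliance on oxidative phosphorylation.

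Single-cell 3′ UMI counts of 26652 cells from 18 male spleen samples in 8 groups were analysed, all sorted as DAPI−, TCRb+, CD4+. The Foxp3-deficient cells, written ∆Foxp3 here, carried the Foxp3DeltaEGFPiCre allele with a ROSA-YFP reporter on a B6 background. With the V2 kit, 2 ∆Foxp3 mice of 3 weeks were set beside 2 wild-type (WT) Foxp3-IRES-GFP mice of 3 weeks. With the V3 kit, 2 ∆Foxp3 samples of 3 weeks were set beside 2 WT samples of 9 weeks (Foxp3-IRES-GFP x CD45.1), so age and genotype cannot be told apart there. Also with V3, 3 mixed bone marrow chimeras each gave a ∆Foxp3 sample (CD45.1+CD45.2+) and a WT sample (CD45.1+CD45.2−). Their recipients, irradiated with 1000 Rad at 7 weeks, had received CD3-depleted marrow, 50% from each genotype, 10 weeks before harvest, and so held WT Treg cells in the same mouse. The labels give these mice an age of 16 weeks, which is not the sum of those times, so their exact age is uncertain. The last V3 samples were 2 sorted GFP+ Treg and 2 sorted GFP− conventional T cell (Tconv) samples from WT mice of 9 weeks. Outside the chimeras the 2 V3 samples of a group carry the same hashtag in 2 pooled 10x channels. They may be 1 mouse loaded in both channels, in which case the p-values below measure only technical spread.

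Total UMIs per sample ran from 955097 to 14887898, from 148 to 5271 cells. Median UMIs per cell were 2774 to 3143 with V2 and 4731 to 8856.5 with V3. The 9 defining T cell genes were detected in every sample, at a summed 4792 to 7745 CPM (UMIs scaled to equal library totals). Foxp3 itself stood at 13.4 to 17.8 CPM in WT and 3.26 to 6.33 CPM in ∆Foxp3 samples of the V2 kit, at 8.25 to 24.6 and 6.67 to 7.42 CPM in the V3 mice, and at 21.9 to 30.7 and 0.757 to 1.5 CPM in the chimeras. The V3 ∆Foxp3 range thus lay below the WT range by little, and the sources used here do not say whether the counted 3′ reads fall in the altered part of the gene. Sorted Treg samples held 109 to 134 CPM and sorted Tconv samples 1.55 to 3.14 CPM. Samples of the intact groups also differed in other markers: 20 proliferation genes summed to 5876 to 9078 CPM in V3 ∆Foxp3 samples against 1675 to 2233 CPM in WT, and 10 resting T cell genes to 2106 to 2420 against 3774 to 4401 CPM. With V2 the sums of those 2 lists were 2762 to 3552 against 2036 to 2042 CPM, and 3278 to 3650 against 4531 to 4549 CPM. Markers of other cell types moved too: with V3, 11 myeloid genes summed to 209.7 to 227 CPM in ∆Foxp3 against 86.6 to 107 CPM in WT samples (186 to 194 against 77.4 to 90.4 CPM in resting Tconv), 9 B cell genes to 130 to 149 against 225 to 254 CPM, and 3 plasma cell genes to 50.7 to 51.3 against 31.2 to 32.9 CPM. With V2, 7 CD8 T and NK cell genes summed to 62.2 to 75.5 against 39.8 to 47.4 CPM, myeloid genes to 123 to 138 against 95.2 to 95.9 CPM, and 5 erythroid genes to 132 to 605 against 129 to 183 CPM, with the top value in ∆Foxp3 B. The part of these differences in the results below was not tested.

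Levels are CPM of summed UMIs, scaled on library totals. Fold changes are edgeR log2 differences with TMM scaling, which centres most genes near 0, and a gene was called where its Benjamini-Hochberg adjusted p over all genes tested was below 0.05. The scaling matters here: with library totals as the only scaling, the median of all genes moved by 0.22 in the V3 comparison of intact mice, by 0.26 in sorted Treg against Tconv and by −0.13 in the chimeras. Every TMM fold change is therefore relative to that shift. In sums over all cells, fewer cells of a type and less RNA per cell cannot be told apart, so tests were repeated within the resting Tconv, activated Tconv and Treg classes of the deposited annotation.

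The regulatory regions of 8 members that the results turn on are shown first, because NRF1, GABPA and YY1 are the factors classically assigned to this gene family and the members below did not move alike. Sequences are RefSeq promoter stretches of GRCm38.p6, 5′ to 3′ on the gene's strand, outside annotated exons. Capitals mark a match to GCGCANGCG, the letters searched for NRF1. Cox5b, Ndufb7, Ndufb8, Ndufa11 and Uqcrfs1 rose in intact ∆Foxp3 mice, while Cox7a2l, Sdha and Ndufaf4 did not rise with them in all cells.
Cox5b (chr1:36691329-36691448, +): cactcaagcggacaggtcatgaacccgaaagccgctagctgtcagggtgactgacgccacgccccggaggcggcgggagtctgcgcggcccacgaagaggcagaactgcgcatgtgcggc
Ndufb7 (chr8:83566551-83566670, +): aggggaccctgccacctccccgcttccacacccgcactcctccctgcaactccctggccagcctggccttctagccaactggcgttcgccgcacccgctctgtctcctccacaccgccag
Ndufb8 (chr19:44555443-44555562, −): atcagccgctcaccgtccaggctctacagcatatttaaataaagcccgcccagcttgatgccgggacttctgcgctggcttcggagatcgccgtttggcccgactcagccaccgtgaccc
Ndufa11 (chr17:56717686-56717761, +): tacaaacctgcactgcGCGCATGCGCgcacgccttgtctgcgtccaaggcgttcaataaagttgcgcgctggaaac
Uqcrfs1 (chr13:30545363-30545482, −): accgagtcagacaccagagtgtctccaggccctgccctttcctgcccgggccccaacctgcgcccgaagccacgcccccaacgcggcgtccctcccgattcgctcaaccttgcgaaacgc
Cox7a2l (chr17:83514334-83514453, −): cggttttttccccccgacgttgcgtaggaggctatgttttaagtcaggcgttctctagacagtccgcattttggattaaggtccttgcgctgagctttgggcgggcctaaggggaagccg
Sdha (chr13:74350281-74350308, −): ggaggggcgtgttGCGCAGGCGcagaat
Ndufaf4 (chr4:24897963-24898082, +): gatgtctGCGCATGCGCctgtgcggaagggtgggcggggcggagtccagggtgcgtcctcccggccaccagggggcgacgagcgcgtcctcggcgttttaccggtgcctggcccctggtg

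Promoters of 74 of the 88 members were in the RefSeq table. In the 250 bases before the start, on both strands, the NRF1 letters were found in 15 of them (20.3%), against 5.86% of 27018 genes. The GABPA letters CCGGAAG were found in 13 (17.6%, against 7.83%) and the YY1 letters AAGATGGCG in 2 (2.70%, against 0.707%). The NRF1 letters stood in 5 of 34 members that rose in the V3 intact comparison (Atp5c1, Atp5k, Atp5l, Ndufa11 and Sdhd), in 3 of 6 that fell (Ndufaf4, Ndufb4 and Sdha) and in 7 of 33 that were not called. A match is only a run of letters, and these counts carry no test.

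In 3-week-old mice measured with V2, ∆Foxp3 CD4+ cells held more respiratory chain mRNA than age-matched WT cells. The members summed to 23733 and 23705 CPM in the ∆Foxp3 samples (replicates A and B) and to 20315 and 20159 CPM in the WT samples, a rise of 17.2% on library totals with no overlap. Among 86 members tested, 21 rose and 1 fell, beside 14.4% of all genes rising and 9.61% falling. The median member difference was 0.19 on the log2 scale, against −0.01 over all genes. In resting Tconv 25 rose and 1 fell of 86 (all genes: 12% and 7.63%), in activated Tconv 13 rose and 0 fell of 82 (9.16% and 6%). With library totals as the only scaling, 39 rose and 1 fell in all cells, while DESeq2 called 9 there, 12 in resting and 4 in activated Tconv. The counts depend on having both WT samples. Without WT A or without WT B 0 members were called in all cells and 3 in activated Tconv, and in resting Tconv 1 and 0, while without ∆Foxp3 A or B 41 and 55 were called in all cells. A group reduced to 1 sample is assumed to vary like the other.

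The V3 comparison, which shares no sample with the V2 one, gave 39 members higher and 6 lower of 85 in ∆Foxp3 mice of 3 weeks against WT mice of 9 weeks, beside 22.1% and 20.9% of all genes. Members summed to 23260 and 24046 CPM against 16729 and 18079 CPM (replicates 1 and 2), a rise of 35.9% on library totals with no overlap. The median member difference was 0.22 against −0.01 over all genes (TMM). Resting Tconv gave 38 higher and 6 lower of 84 (22.2% and 19.2% of all genes). By its markers that class was not alike in the groups. Resting T cell genes summed to 2379 to 2784 CPM in its ∆Foxp3 and 4395 to 4783 CPM in its WT samples. Activated Tconv of WT samples held 2327 to 3084 CPM of these genes. Proliferation genes summed to 3933 to 6791 CPM in the ∆Foxp3 and 1355 to 1548 CPM in the WT resting class. The part of these differences in the counts was not tested. Activated Tconv gave 19 higher and 0 lower of 83 (5.31% and 4.70%), although without WT 1 or ∆Foxp3 2 only 1 member was called there, without WT 2 there were 6, and without ∆Foxp3 1 there were 8. With library totals as the only scaling, 64 members rose and only Cox7a2l fell in all cells, as the split over all genes moved to 33.5% higher and 12.6% lower. In resting Tconv it moved to 67 and 1 members and to 37.2% and 10.1% of all genes. Each 10x channel held 1 sample of each group, and the ∆Foxp3 sum was higher in both channels.

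**Figure D1:**
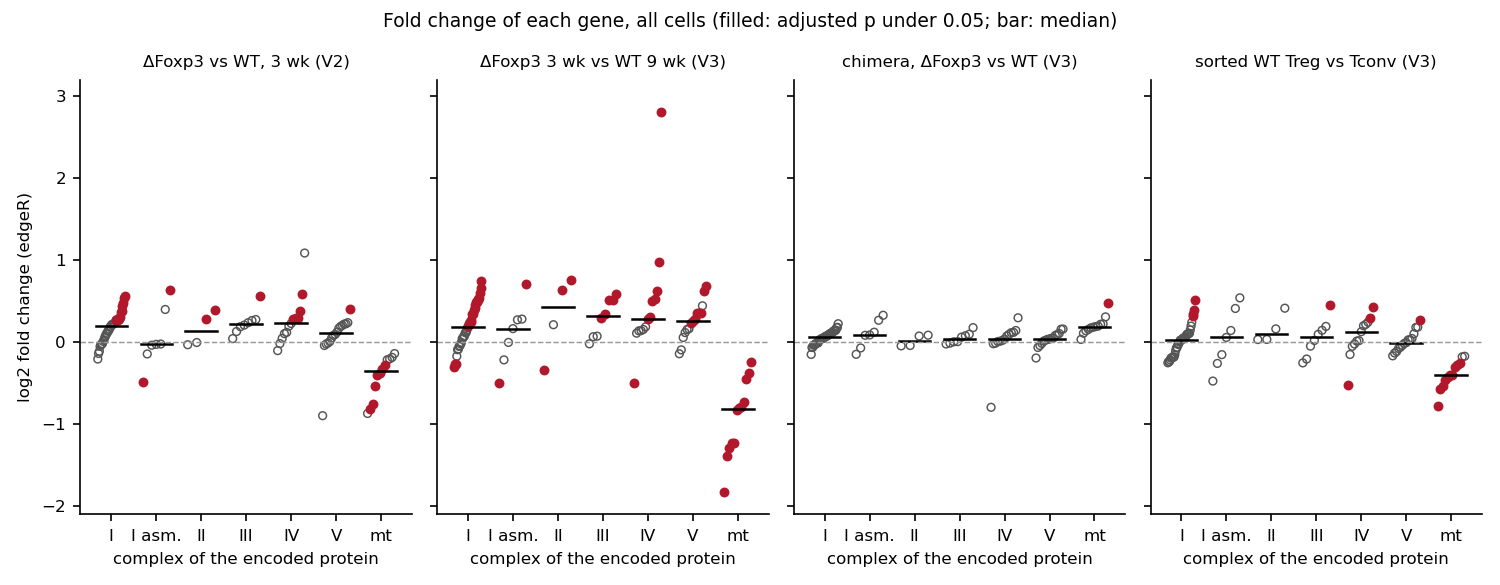
Log2 fold change (edgeR, TMM scaling, all cells; y axis) of each gene tested, grouped by complex on the x axis with the mitochondrially encoded genes (mt) last, in 4 comparisons. Each point is a gene, filled where the adjusted p is under 0.05, and bars are group medians. In both intact comparisons the called subunits lie mostly above 0 and the mitochondrial genes below 0, and the chimera panel shows 0 called nuclear members. Cox6b2 at 6.02 in the Treg panel lies outside the axis, and Atp5s and Atp5sl are not drawn.

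Complex I, the NADH dehydrogenase, gave the largest number of called members, and it is also the largest set. Of its 36 subunits, 11 rose and 0 fell with V2, and 16 rose and 3 fell with V3. The shares of all genes that rose and fell in these tests were 14.4% and 9.61% with V2, and 22.1% and 20.9% with V3. With V3 a larger share rose in complexes III and V, as given below. Among the 7 core subunits, which carry the redox centres, 2 rose with V2 and 3 with V3. Among the 29 accessory subunits 9 and 13 rose. Ndufb8, an accessory subunit of the membrane arm, measured 203 and 214 CPM in ∆Foxp3 against 135 and 137 CPM in WT (V2), and 223 and 238 against 118 and 116 CPM (V3). The groups did not overlap with either kit, and the differences were 0.56 (SE 0.07, edgeR adjusted p = 0.0046) and 0.75 (SE 0.08, adjusted p = 2.3e-06). Ndufb7, another subunit of that arm, measured 257 and 286 against 185 and 189 CPM (V2), and 386 and 397 against 199 and 229 CPM (V3). Its differences were 0.48 (SE 0.08, adjusted p = 0.0094) and 0.66 (SE 0.07, adjusted p = 3.8e-06).

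Ndufb9 and Ndufa11, accessory subunits of the same arm, repeated the pattern at a smaller size. Ndufb9 measured 239 and 244 against 179 and 178 CPM (V2) and 308 and 319 against 174 and 197 CPM (V3). Ndufa11 measured 209 and 211 against 162 and 164 CPM (V2) and 238 and 244 against 155 and 159 CPM (V3). All 4 comparisons of these genes were without overlap, with log2 differences of 0.38 (Ndufb9) and 0.31 (Ndufa11) with V2 and of 0.54 and 0.40 with V3. Ndufs8, a core iron-sulfur subunit, rose by 0.53 (SE 0.08, adjusted p = 0.0080) with V2 and by 0.41 (SE 0.09, adjusted p = 0.0015) with V3. Ndufv2, a core subunit of the NADH-binding module, rose by 0.60 (SE 0.08, adjusted p = 3.7e-05) with V3 and gave 0.27 (adjusted p = 0.078) with V2. The core subunits Ndufs1, Ndufs3 and Ndufs7 were not called in all cells with either kit, with log2 differences from −0.05 to 0.23, although Ndufs3 rose by 0.31 (adjusted p = 0.025) in resting Tconv with V2. Complex I subunits therefore did not change as one block.

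Falls in complex I were few. With V3, Ndufb4 gave −0.30 (SE 0.08, adjusted p = 0.0097), Ndufc1 −0.27 (SE 0.08, adjusted p = 0.017) and Ndufa3 −0.26 (SE 0.08, adjusted p = 0.016), and all 3 calls were lost with library totals as the only scaling. Ndufaf4, an assembly factor of complex I, was the only member that fell in both comparisons. It measured 35.4 and 32.3 CPM against 46.4 and 46.1 CPM (V2), without overlap, and 35.7 and 26.8 against 38.7 and 35.8 CPM (V3), where the groups barely separated. Its differences were −0.49 (SE 0.09, adjusted p = 0.014) and −0.50 (SE 0.14, adjusted p = 0.010). Ndufaf4 lost the V3 call with library totals (−0.27), without WT 1 (−0.40) and without ∆Foxp3 2 (−0.28), and the V2 call with DESeq2 and without WT A or WT B. Ndufaf7, another assembly factor, rose by 0.64 (adjusted p = 0.021) and 0.71 (adjusted p = 0.047).

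The 4 subunits of complex II, succinate dehydrogenase, split. Sdhb, the iron-sulfur subunit, measured 207 and 209 CPM against 166 and 162 CPM (V2) and 221 and 226 against 120.1 and 127 CPM (V3). Sdhd, a membrane anchor, measured 77.3 and 88.1 against 60.4 and 60.4 CPM, and 104 and 117 against 51.1 and 62.9 CPM. Both were higher in every ∆Foxp3 sample, by 0.29 and 0.39 with V2 (adjusted p = 0.030 and 0.022) and by 0.64 and 0.75 with V3 (adjusted p = 0.00010 and 0.00024). Sdhc, the other anchor, was not called in all cells or any class with either kit (all cells: −0.01, SE 0.14, and 0.21, SE 0.11). Sdha, the flavoprotein that binds succinate, measured 129 and 112 against 122 and 117 CPM with V2, where the groups overlapped (−0.03, SE 0.10). With V3 it measured 93.0 and 98.7 against 101 and 109 CPM, a fall of 0.35 (SE 0.08, adjusted p = 0.0022) that was not called with library totals as the only scaling (−0.12). Sdha thus did not share the rises of Sdhb and Sdhd. The NRF1 letters do not separate these genes, since they stand in the promoters of both Sdha and Sdhd.

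In complex III, which oxidises ubiquinol, Uqcrfs1 rose in every class of the V2 comparison. This gene encodes the Rieske iron-sulfur protein. It measured 266 and 277 CPM against 178 and 176 CPM (V2) and 208 and 229 against 126 and 138 CPM (V3), without overlap. The differences were 0.56 (SE 0.07, adjusted p = 0.0044) and 0.51 (SE 0.08, adjusted p = 0.00013) in all cells, and 0.66 (SE 0.10) and 0.85 (SE 0.14) in activated Tconv. With V3, Uqcr10, a small subunit (0.59, SE 0.07), Uqcrc1, a core subunit (0.51, SE 0.09), Uqcrq (0.34, SE 0.07) and Uqcr11 (0.30, SE 0.08) rose as well, making 5 of 8. With V2 the count was 1 of 8 in all cells and 3 of 8 in resting Tconv. Of all genes, 22.1% rose with V3, and with V2 14.4% in all cells and 12% in resting Tconv. Uqcrh, the hinge protein that helps dock cytochrome c, and Uqcrb were not called in all cells with either kit. Uqcrh gave 0.19 (adjusted p = 0.10) with V2 and −0.02 (adjusted p = 0.84) with V3.

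Complex IV, cytochrome c oxidase, held Cox5b, the member called in the most tests of intact mice. This general subunit measured 425 and 464 CPM in ∆Foxp3 against 287 and 284 CPM in WT (V2), and 578 and 633 against 241 and 290 CPM (V3). The lowest ∆Foxp3 sample lay above the highest WT sample in both kits. The log2 differences were 0.58 (SE 0.07, adjusted p = 0.0047) and 0.98 (SE 0.10, adjusted p = 1.9e-06). In resting Tconv they were 0.50 (SE 0.07) and 1.02 (SE 0.09), in activated Tconv 0.52 (SE 0.10) and 0.79 (SE 0.16). Cox5b was called higher in 8 of 8 tests of intact mice (2 kits, all cells and 3 classes), Ndufb7, Ndufb8 and Uqcrfs1 in 7 of 8. Each of the V2 calls of these genes in all cells was lost without WT A or WT B, at log2 differences that barely moved (0.57 and 0.59 for Cox5b).

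Cox5a, Cox8a, Cox6c and Cox4i1, further general subunits, also rose with both kits, by 0.29 to 0.37 with V2 and by 0.29 to 0.63 with V3. Cox6b1 rose by 0.50 (SE 0.08, adjusted p = 0.00011) with V3 and gave 0.23 (adjusted p = 0.069) with V2. Cox6a1, Cox7a2 and Cox7b were not called with either kit in all cells or any class, and Cox7c rose in 1 test, Treg-annotated cells with V2 (0.39, SE 0.12, adjusted p = 0.037). Of the tissue-restricted forms, Cox7a1 and Cox6a2 did not pass the filter on low counts, and Cox6b2, known from testis, was near 0: its fitted rise of 2.81 (SE 0.95, adjusted p = 0.027) with V3 rests on single UMIs and was not called with DESeq2 or without WT 1. Ndufa4, named after complex I but a subunit of complex IV, gave −0.02 with V2 and 0.14 (adjusted p = 0.18) with V3.

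Cox7a2l, a factor assigned to the joining of complexes III and IV into supercomplexes, went its own way. Whether it does so in these mice was not tested. In all cells with V2 it measured 969.6 and 893 CPM against 869 and 869 CPM, a difference of 0.04 (SE 0.08, adjusted p = 0.73). With V3 it measured 555 and 506 against 655 and 633 CPM, without overlap and in the opposite direction, at −0.50 (SE 0.10, adjusted p = 0.0010). In resting Tconv the kits disagreed in sign: 1031 and 1025 against 871 and 873 CPM with V2 (0.23, SE 0.06, adjusted p = 0.034), and 582 and 542 against 688 and 689 CPM with V3 (−0.58, SE 0.06, adjusted p = 7.7e-08). The V2 rise was not called with DESeq2, without a low-count filter, without WT A or without WT B, whereas the V3 fall was called under library totals too (−0.29). In activated Tconv neither was called (−0.11, SE 0.09, and 0.11, SE 0.14). Age differs between the WT groups of the kits, and its part in the sign was not tested.

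**Figure D2:**
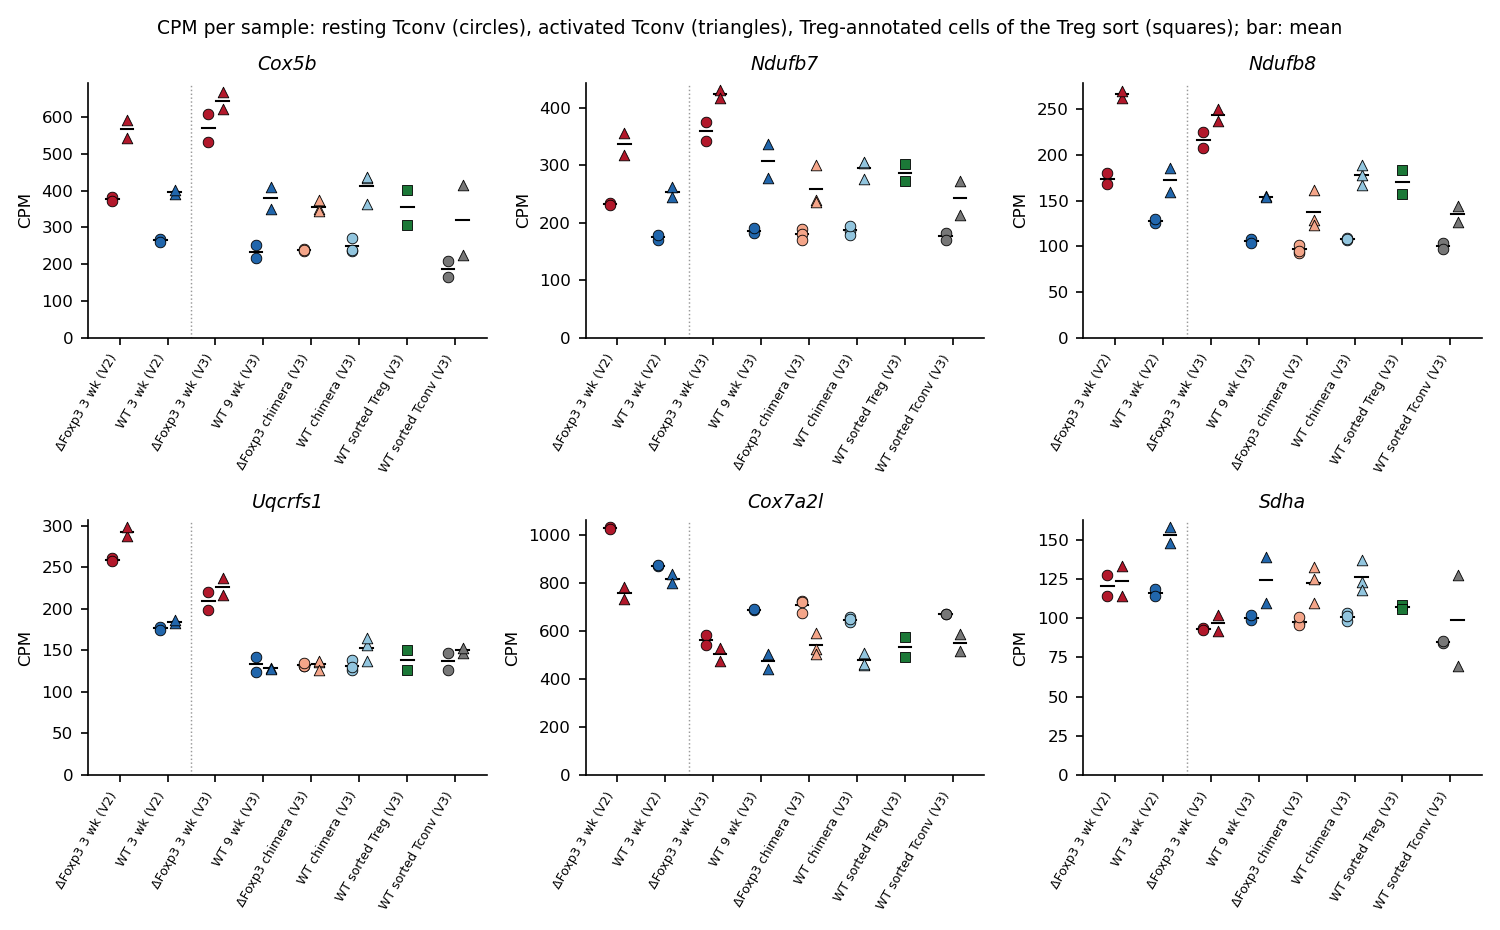
CPM of 6 members in each sample, by group, in resting Tconv (circles), activated Tconv (triangles) and sorted Treg samples (squares), with bars at group means. Cox5b, Ndufb7, Ndufb8 and Uqcrfs1 lie above WT in ∆Foxp3 samples of 3 weeks with both kits, while Cox7a2l rises with V2 and falls with V3 in resting Tconv, and Sdha shows no rise in resting cells of either kit.

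In complex V, the ATP synthase, the V2 count of rises was 1 of 16 and the V3 count 8 of 15. Of all genes 14.4% rose with V2 and 22.1% with V3, so the V2 share of complex V was below that of all genes. Atp5c1, the gamma subunit of the central stalk, was the member called with both kits, at 0.40 (SE 0.07, adjusted p = 0.011) and 0.36 (SE 0.07, adjusted p = 0.0010). Atp5g3, one of 3 genes for the same c-ring subunit, measured 278 and 274 against 223 and 228 CPM (V2) and 350 and 363 against 184 and 215 CPM (V3). It rose by 0.63 (SE 0.08, adjusted p = 1.6e-05) with V3 and gave 0.24 (adjusted p = 0.061) with V2. The other c-ring genes, Atp5g1 and Atp5g2, were not called in all cells with V3 (−0.10, SE 0.09, and 0.44, SE 0.37). The catalytic F1 subunits Atp5a1 and Atp5b rose with V3 by 0.35 and 0.26 (adjusted p = 0.0012 and 0.0076). Atp5l, a membrane subunit, rose by 0.68 (SE 0.20, adjusted p = 0.013) with V3, but it is near-identical to the pseudogene Atp5l-ps1, so its count is uncertain, and the call was lost without WT 1 (0.42) or ∆Foxp3 2 (0.50). Atp5e, the epsilon subunit, fell by 0.17 (adjusted p = 0.042) in resting Tconv with V3, and turned to a rise with library totals (0.12).

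Called higher in both intact comparisons at once were 20 of 85 members in all cells, 23.5% of those tested in both, beside 10.2% of all genes. In resting Tconv there were 16 (19%, all genes 6.83%), in activated Tconv 9 (11%, all genes 3.24%) and in Treg-annotated cells 1, Cox5b (1.27%, all genes 2.37%). The 6 that rose in all cells, resting and activated Tconv of both kits were Cox5b, Ndufa11, Ndufb7, Ndufb8, Ndufb9 and Uqcrfs1, 7.32% of 82 members beside 1.94% of all genes. Called lower in both was Ndufaf4 alone, in all cells (1.18% of members, all genes 6.83%) and in resting Tconv (1.19%, all genes 4.66%). Treg-annotated cells are fewer, and with V2 their clusters differed between the groups. ∆Foxp3 A and B held 104 and 82 cells of Treg_activated, 63 and 22 of Treg_resting and 22 and 9 of Treg_typeA. WT A and B held 56 and 43 cells of Treg_activated, 220 and 171 of Treg_resting and 0 of Treg_typeA. The part of this in the counts was not tested. With V2, 12 members rose and 0 fell of 79 (all genes: 8.54% and 7.79%), of which 5 belonged to complex IV. With V3, 2 rose and 0 fell of 80 (3.60% and 3.49%): Cox5b by 0.63 (SE 0.18, adjusted p = 0.026) and Ndufv3, an accessory subunit of complex I, by 0.82 (SE 0.21, adjusted p = 0.013). The V2 count of 12 fell to 0 without WT A, without WT B and with DESeq2, to 8 without ∆Foxp3 A and to 6 with the replicate block. The V3 count of 2 fell to 0 without WT 1 or ∆Foxp3 1 and to 1 without WT 2 or ∆Foxp3 2.

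In the mixed chimeras, where ∆Foxp3 and WT cells developed in the same mice, 0 of 85 members were called in all cells (all genes, either direction: 0.458%). At an unadjusted p under 0.05 there were 13 members, and DESeq2 called 6. Members summed to 16943, 17259 and 17032 CPM in ∆Foxp3 cells (mice 1, 2 and 3) and to 18284, 17356 and 17739 CPM in WT cells. In these sums over all cells ∆Foxp3 lay lower in every sample, by 4.02% on library totals. The median log2 difference was 0.05 with TMM and −0.08 with library totals, so its sign depends on the scaling. Cox5b measured 256, 270.4 and 251 CPM against 311, 266 and 284 CPM, with overlap (−0.01, SE 0.08). Ndufb8 measured 98.2, 112 and 105 CPM against 130.3, 124 and 127 CPM, lower in every ∆Foxp3 sample but not called (−0.15, SE 0.06, adjusted p = 0.37). In resting Tconv alone the member sums were 16625, 16309 and 16639 CPM against 17093, 16364 and 16668 CPM (mice 1, 2 and 3). As groups they overlapped, but within each mouse the ∆Foxp3 sum was the lower one, by little in mice 2 and 3. Treg-annotated cells were 51 of 2136, 44 of 909 and 47 of 2075 cells in ∆Foxp3 samples. In WT samples they were 73 of 747, 162 of 1850 and 74 of 839. The part of this difference in the sums over all cells was not tested.

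Cox7a2l was the 1 member called in the chimeras, in resting Tconv, out of 84 (all genes: 1.28%). It measured 724, 674 and 721 CPM in ∆Foxp3 cells and 649, 657 and 635 CPM in WT cells of mice 1, 2 and 3, without overlap, a rise of 0.22 (SE 0.05, adjusted p = 0.020). The call was lost with library totals (0.13) and in 4 of the 6 fits without 1 sample. In all cells it gave 0.30 (SE 0.08, adjusted p = 0.15). With the mouse as a block, which the shared hashtags allow, 1 member was called in all cells and 3 in resting Tconv. With the 10x channel as a term, Cox7a2l was called in all cells too (0.24). Activated Tconv gave 0 of 83 (all genes: 0.137%), with 8 at an unadjusted p under 0.05, and Treg-annotated cells 0 of 80 (0.359%), with 1 at that level. The genotype is partly confounded with the channel, since ∆Foxp3 samples 1 and 3 and WT sample 2 shared one.

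The difference between these genotype contrasts was tested directly as an interaction within the V3 fit, which uses the samples of both. In all cells 31 members were higher and 7 lower in the intact contrast than in the chimera contrast, beside 36.8% of all genes called in either direction (18.7% higher and 18.1% lower). In resting Tconv there were 25 and 8 (all genes 33.5%, 17.6% and 15.9%), in activated Tconv 16 and 0 (8.19%, 4.67% and 3.52%). With library totals as the only scaling the split was 60 and 1 in all cells (all genes 35.2% and 8.96%) and 62 and 1 in resting Tconv (35.9% and 7.28%), and 4 of the 7 and 5 of the 8 falls turned sign. Without WT 1 of 9 weeks the numbers of called members were 25, 20 and 2 in the 3 classes. In activated Tconv leaving out either intact ∆Foxp3 sample, WT 2 of 9 weeks, or a chimera sample of mouse 1 or 3 gave 3 to 9. Cox5b differed by 0.99 (SE 0.12, adjusted p = 2.5e-05) and Ndufb8 by 0.90 (SE 0.10). Cox7a2l differed in the other direction, by −0.80 (SE 0.13, adjusted p = 0.00025). The intact contrast includes the age difference, so age, Foxp3 and the presence of WT Treg cells cannot be told apart in it.

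WT cells sorted as GFP+ Treg and as GFP− Tconv were compared at the same age. Members summed to 19464 and 21161 CPM in Treg and 16222 and 17358 CPM in Tconv samples, 21.0% higher on library totals without overlap. The median of all genes also lay higher on that scale, by 0.26 on the log2 scale against 0.29 for members. After TMM scaling the member median was 0.03, and 8 members rose and 1 fell of 85, a share near that of all genes (6.16% and 6.01%). The rising members were spread over complex I (4), III (1), IV (2) and V (1). Cox5b measured 307 and 402 against 213 and 228 CPM (0.43, SE 0.11, adjusted p = 0.018). Ndufb7 measured 272 and 302 against 185 and 196 CPM (0.34, SE 0.08, adjusted p = 0.012), and Ndufb8 157 and 183 against 108 and 109 CPM (0.39, SE 0.09, adjusted p = 0.013). These 3 members, which rose in intact ∆Foxp3 mice, were thus also higher in Treg than in Tconv samples, with no overlap.

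Ndufs8 (0.51, SE 0.12, adjusted p = 0.0081), Uqcr11 (0.46, SE 0.10, adjusted p = 0.0056), Ndufa13 (0.31), Cox6c (0.30) and Atp5j2 (0.27) completed the rises. Cox7a2l was again the member that fell, at 575 and 493 CPM in Treg against 661 and 631 CPM in Tconv (−0.53, SE 0.11, adjusted p = 0.0044). Its call was lost without Tconv 1 (−0.44) or Treg 2 (−0.38). Uqcrfs1 measured 127 and 150.1 against 130 and 149 CPM, overlapping, unlike in the ∆Foxp3 comparison. With library totals as the only scaling, 34 members rose and Cox7a2l alone fell, while all genes moved to 14.9% higher and 3.30% lower. Without 1 sample the count ran from 1 (without Tconv 1) through 2 (without Treg 2) and 4 (without Tconv 2) to 7 (without Treg 1). Proliferation genes summed to 2671 to 4695 CPM in Treg and 1383 to 2121 CPM in Tconv samples, and B cell markers to 411 to 528 against 206 to 216 CPM. Their part in these differences was not tested.

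Within samples, activated Tconv were set beside resting Tconv of the same library, as a description, because the class itself was drawn from expression. The summed members were higher in activated cells of 16 of 16 samples, by 3.86% to 27.6% with a median of 16.5%. Complex II showed a median of 26.1%, complex IV 19.8%, complex V 16.8%, complex I 16.1% and complex III 15.8%. The group means were 26.6% (SD 1.40, n = 3) for WT cells of the chimeras, 22.3% (SD 1.21, n = 2) for WT mice of 9 weeks, 20.1% (SD 10.5, n = 2, from 12.6% and 27.5%) for sorted WT Tconv, 18.5% (SD 6.27, n = 3) for ∆Foxp3 cells of the chimeras, 15.9% for WT and 13.97% for ∆Foxp3 mice with V2, and 5.04% (SD 1.66, n = 2) for ∆Foxp3 mice with V3. In that last group Cox5b measured 533 and 608 CPM in resting and 621 and 668 CPM in activated Tconv. In WT 9-week mice it measured 216 and 251 CPM in resting and 351 and 410 CPM in activated Tconv. Resting Tconv of those ∆Foxp3 samples also held 3933 to 6791 CPM of proliferation genes, against 1355 to 1548 CPM in WT. Their resting T cell genes summed to 2379 to 2784 CPM in resting and 1902 to 2165 CPM in activated Tconv. The part of these values in the 5.04% was not tested.

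Member by member, 82 had at least 1 UMI in both classes of every sample, and 30 of these were higher in activated cells of all 16 samples. The same count was not made over all genes, so it cannot be read as particular to the members. Among the 30, Cox5b had the highest median log2 difference, 0.62 (0.12 to 1.34), followed by Ndufb7 at 0.59 (0.15 to 0.83), Ndufb8 at 0.56, Cox6b1 at 0.54 and Ndufa13 and Ndufb9 at 0.47. Of the 82, Cox7a2l was the only member higher in none, with a median of −0.39 (−0.64 to −0.06), and Ndufaf4 was higher in 1 of 16 (−0.37). In the intact comparisons these genes also stood apart, Cox5b as a rise with both kits and Ndufaf4 as a fall. The classes hold different clusters in different groups: the cluster Tconv_activated_2 gave 191 and 153 activated cells in V3 ∆Foxp3 samples but 5 and 3 in WT 9-week samples.

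**Figure D3:**
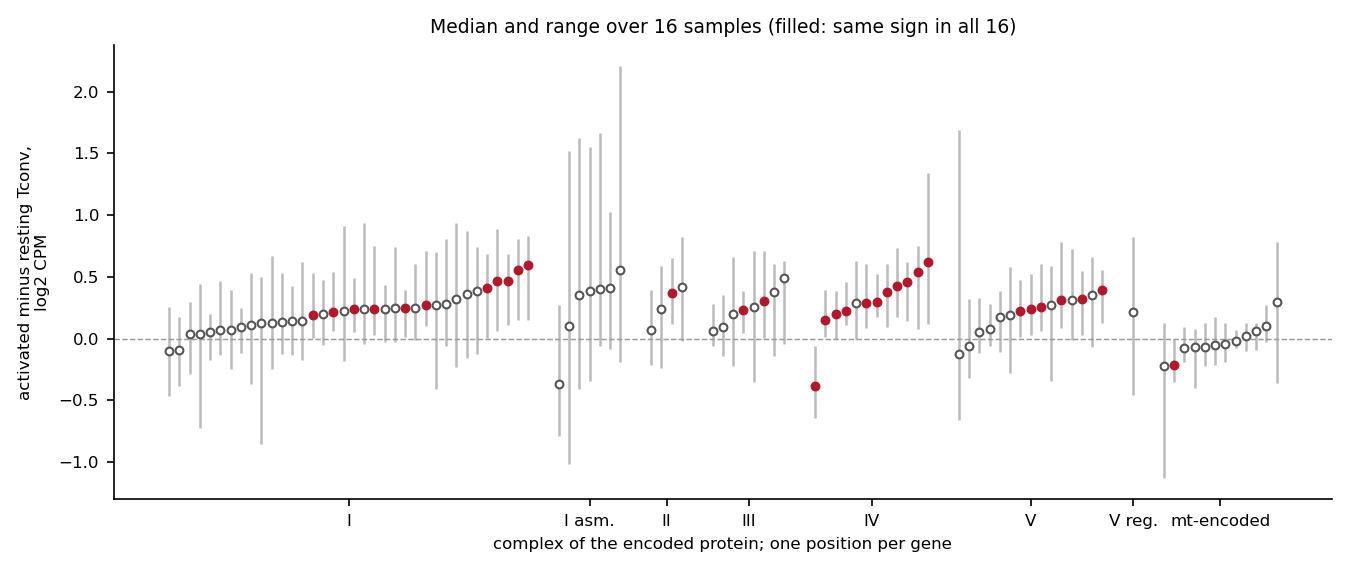
Log2 CPM of activated minus resting Tconv (y axis), with 1 position per gene along the x axis, grouped by complex and ordered by the median. Points are medians and lines the range over 16 samples, filled red where all 16 samples have the same sign. Most medians lie above 0; the filled point below 0 in complex IV is Cox7a2l, and 6 genes with wide ranges at low counts are left out.

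The mitochondrially encoded subunits moved against the nuclear ones in intact mice. They summed to 23376 and 22812 CPM in ∆Foxp3 against 27710 and 26559 CPM in WT with V2 (−14.9%), and to 47450 and 46875 against 69408 and 69634 CPM with V3 (−32.2%). Of 12 tested, 7 fell with V2 and 12 with V3, and 0 rose, beside 9.61% and 20.9% of all genes falling. With library totals as the only scaling 7 and 10 fell (all genes 7.51% and 12.6%). mt-Nd2, a complex I core subunit, measured 647 and 554 against 846 and 826 CPM (V2) and 1440 and 1326 against 4305 and 4124 CPM (V3), falling by 0.53 (SE 0.10) and by 1.83 (SE 0.09). mt-Co1, a core subunit of complex IV, gave −0.14 (adjusted p = 0.22) and −0.25 (adjusted p = 0.0047). The ratio of nuclear to mitochondrial UMIs was 1.02 and 1.04 against 0.733 and 0.759 (V2), and 0.490 and 0.513 against 0.241 and 0.260 (V3). Every ∆Foxp3 sample had a higher ratio than every WT sample of its kit. Over all cells of the chimeras the ratio was 0.280 to 0.286 in ∆Foxp3 and 0.292 to 0.327 in WT cells, the other way round. In their resting Tconv the ratios of the groups overlapped, but within each mouse the ∆Foxp3 ratio was the lower one. In mouse 1 the nuclear and mitochondrial sums were 16625 and 59102 CPM in ∆Foxp3 and 17093 and 56184 CPM in WT cells. In mouse 2 they were 16309 and 60242 CPM against 16364 and 59160 CPM. Mouse 3 gave 16639 and 60543 CPM against 16668 and 58307 CPM. Over all cells of the chimeras mt-Nd3, a small complex I subunit, was the 1 mitochondrial gene called, as a rise of 0.47 (SE 0.06, adjusted p = 0.0004). Sorted Treg samples stood at 0.296 and 0.333 and Tconv at 0.232 and 0.253. There 10 of 12 mitochondrial genes were lower in Treg, beside 6.01% of all genes (5 with library totals, beside 3.3%). The deposited fraction of reads in cells differed between the V2 groups, at 0.597 and 0.534 in ∆Foxp3 and 0.791 and 0.795 in WT libraries, and its part in these values was not tested.

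**Figure D4:**
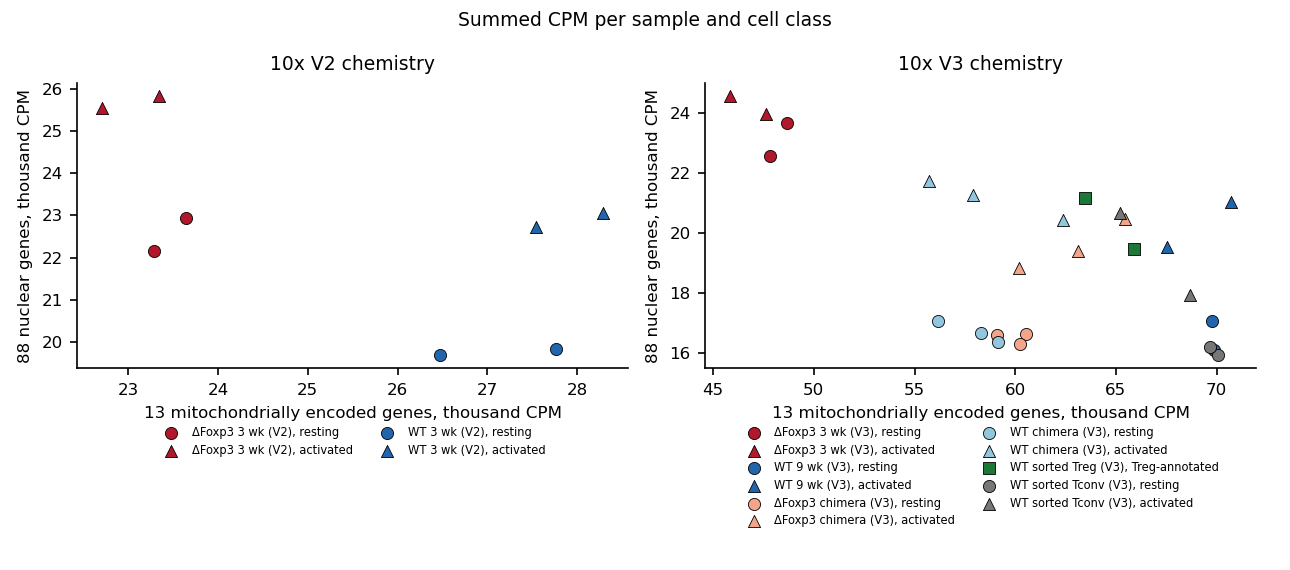
Summed CPM of the 88 nuclear members (y axis, CPM in units of 1000) against the 13 mitochondrially encoded protein genes (x axis, in the same unit) in each sample, with V2 on the left and V3 on the right; both axes start above 0. Circles are resting Tconv, triangles activated Tconv and squares Treg-annotated cells of the Treg sort. ∆Foxp3 samples of 3 weeks lie at the upper left in both panels, with a higher nuclear and a lower mitochondrial sum than WT of the same class, and activated cells lie above resting cells of the same group.

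Other genes that feed or build the chain did not move as one. Over all genes, 14.4% rose and 9.61% fell with V2, and 22.1% rose and 20.9% fell with V3 (33.5% and 12.6% with library totals). Of 12 electron carriers and exchangers, 7 rose with V2 and 5 with V3 (11 with library totals), and 0 fell. Slc25a4, an ADP/ATP exchanger of the inner membrane, measured 233 and 262 against 101 and 106 CPM (V2) and 230 and 248 against 111 and 127 CPM (V3), rising by 1.2 (SE 0.08, adjusted p = 0.00092) and 0.80 (SE 0.12, adjusted p = 8.7e-05). Sdhaf1, the factor that helps load iron-sulfur clusters into Sdhb, measured 112 and 101 against 43.2 and 39.8 CPM, and 124 and 117 against 47.2 and 52.0 CPM. It rose by 1.31 (SE 0.09, adjusted p = 0.00090) and 1.06 (SE 0.14, adjusted p = 1.9e-05), and was the only one called with either kit, in all cells, among 11 tested assembly factors of complexes I, II and V that the symbol rule leaves out. Atpif1, the inhibitor of the F1 part, which the symbol rule leaves out, measured 124 and 135 against 79.1 and 82.3 CPM, and 177 and 213 against 67.6 and 104 CPM. It rose by 0.62 (SE 0.08, adjusted p = 0.0046), by 1.0 (SE 0.16, adjusted p = 0.00017), and in Treg against Tconv by 1.15 (SE 0.20, adjusted p = 0.0014).

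Of 22 assembly factors of complexes III and IV, 1 rose and 1 fell with V2, and 1 rose and 5 fell with V3 (4 and 4 with library totals). With V3, 22.1% of all genes rose and 20.9% fell, so the share of these factors that fell was near that of all genes. Coa3, a complex IV assembly factor, measured 65.5 and 60.8 against 85.0 and 95.3 CPM with V3 and fell by 0.73 (SE 0.10, adjusted p = 3.8e-05). Surf1, another, rose by 0.43 and 0.92. Of 13 regulators of mitochondrial biogenesis, 0 were called with V2, while Pprc1, a coactivator (−1.41), Myc (−1.26) and Yy1 (−0.28) fell with V3. The share of these regulators that fell was also near that of all genes. Nrf1, Gabpa and Tfam were not called in all cells with either kit. With library totals the Yy1 call was lost and Nrf1, Gabpa and Gabpb2 rose. Of 13 TCA cycle enzymes, Idh3a rose with V2 (0.47), and Fh1 (0.78), Idh3a (0.58), Idh3b and Idh3g rose and Suclg1 (−0.25) fell with V3. With library totals 8 rose and 0 fell there. Of 9 coenzyme Q synthesis genes, 0 were called with V2, and Coq4, Coq5 and Pdss2 fell with V3, none of them with library totals, where Coq7 and Pdss1 rose.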

How the data were processed

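The authors deposited whole UMI counts per gene and cell, with per-cell metadata; per the submitters' processing notes Cell Ranger 3.0.2 and mm10 were used, and further steps are not given in the sources used here. Deposited cell classes, the deposited UMI count per cell and the deposited percent of mitochondrial UMIs came from that metadata, as did the deposited fraction of reads in cells; 50 other metadata columns were not used. The matrix sum of UMIs equals the deposited one in 24580 of 26652 cells, and 9 (V3) and 90 (V2) cell barcodes are shared between channels or libraries. No doublet caller was run. Counts were summed per sample, and per sample and class with at least 20 cells, and tested with edgeR 4.0.16 (quasi-likelihood, TMM, filterByExpr with a minimum count of 10, R 4.3.3): V2 in a fit of 4 samples, V3 in a fit of 14. UMIs are 3′ tags, so no length correction was made, and coding and UTR parts are not told apart.

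Members and lists were chosen with earlier results of these data known. Named members were, per comparison and class, up to 3 called rises and 3 called falls per complex at 20 CPM or more, the 4 complex II genes, tissue forms with their general forms, Cox7a2l, Ndufa4 and Atpif1, and up to 2 genes of each other list. Scaling on library totals was chosen after seeing the data. The other alternatives were DESeq2 1.42.0, other scaling, no filter, a replicate or mouse block, the 10x channel, only the groups compared, leaving out mitochondrial genes or clusters, and leaving out each sample. The tests were also run on simulated counts with 1 spread for all genes. Of genes changed 1.5 times, 28.6% (V2, all cells), 36.2% (V3, all cells) and 20.4% (V3, activated Tconv) were recovered. Of genes changed 1.25 times the shares were 2%, 2.08% and 0%. Unchanged genes made up 3.77%, 8.26% and 7.89% of the calls. A member that was not called is therefore not shown to be unchanged. Replicate numbers pair the chimera samples by mouse, from the hashtags in the labels (correlations of the pairs' deviations from their group means 0.060, −0.050 and −0.010), and the other V3 samples by channel (0.208 for the intact and 0.182 for the sorted pair). The V2 samples share only a letter. Gene coordinates follow GENCODE vM21 and promoters RefSeq, both on GRCm38.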

Additional observations from a re-analysis of the deposited data

Results flagged for a closer look

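The genotype difference of intact mice (V3, ∆Foxp3 of 3 weeks against WT of 9 weeks) differed from that of the chimeras, by an interaction term of the edgeR fit, for 38 members in all cells, 33 in resting Tconv and 16 in activated Tconv, beside 36.8%, 33.5% and 8.19% of all genes. Called in all 3 classes were 12 members (14.5% of 83, beside 4.07% of all genes in that direction), all higher in the intact contrast, and 0 were lower (all genes 3.03%). In all cells the log2 difference of differences was 0.99 for Cox5b and 0.90 for Ndufb8, followed by Atp5g3 at 0.69, Sdhb at 0.68, Ndufb7 at 0.67, Ndufb9 and Uqcr10 at 0.58 each, Ndufb6 at 0.56, Cox8a at 0.43, Ndufa11 at 0.42, Ndufc2 at 0.35 and Atp5a1 at 0.34. In the other direction stood Cox7a2l at −0.80 and Sdha at −0.42. Sdha was not called here with library totals as the only scaling (−0.065), while Cox7a2l was (−0.44). The samples behind the 2 contrasts differ in age, host and radiation, which cannot be told apart.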

How the results depend on the processing

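Of 219 counts of called members under alternatives, 163 stayed within 1.5 times. With DESeq2 the V2 comparison called 9 members in all cells (22 by edgeR), 12 in resting (26) and 4 in activated Tconv (13), and 0 in Treg-annotated cells (12), and the chimeras 6 in all cells (0) and 2 in resting Tconv (1). With library totals as the only scaling, chosen after seeing the data, V2 all cells gave 40, Treg against Tconv 35 (9), V3 resting Tconv of intact mice 68 (44), chimera resting Tconv 0, and the interaction 61 in all cells (38) and 63 in resting Tconv (33). Without a low-count filter, and with the channel as a term, the chimeras gave 1 member in all cells. With only the groups compared, Treg against Tconv gave 4. The replicate block gave 1 and 3 chimera members in all cells and resting Tconv and 6 in V2 Treg-annotated cells, and changed no other count by over 1.5 times.

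Leaving out 1 sample gave 0 to 55 (V2 all cells), 0 to 50 (resting), 3 to 22 (activated) and 0 to 13 (Treg-annotated); 33 to 45, 31 to 43, 1 to 8 and 0 to 1 for V3 intact mice in that order; 0 to 1, 0 to 1, 0 to 0 and 0 to 0 for the chimeras; 1 to 7 for Treg against Tconv; and 25 to 40, 20 to 37 and 2 to 19 for the interaction.

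Of 5921 member values, 5200 kept their status, 644 lost a call, 63 gained one and 14 turned sign, all 14 with library totals. The 5200 include members that were uncalled and stayed so, and are not a count of kept calls. Called values that turned were Atp5e (V3 resting Tconv, 0.123) and, in the interaction, Ndufa3 (0.016), Ndufb4 (0.02), Ndufc1 (0.059) and Atp5e (0.05) in all cells, and Ndufa3 (0.025), Ndufb4 (0.042), Ndufa2 (0.125), Uqcrh (0.156) and Atp5e (0.082) in resting Tconv. Uncalled values that became called rises were Uqcrh in V3 intact mice (0.201, resting 0.207) and in Treg against Tconv (0.203), and Cox4i1 there (0.231). The cause was not tested. Without NKT and dividing clusters every count stayed within 1.5 times. The part of depth in the lower counts of the Treg-annotated and activated classes was not tested.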
